A study of Mus musculus with 24 samples.

Results

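The data followed here are the levels of 10 genes that are commonly used to describe macrophage polarization, Arg1, Nos2, Mrc1, Retnla, Chil3, Cd163, Il1b, Tnf, Il4ra and Il10, among the 16996 genes of a normalized RNA-sequencing table of tumor immune cells. They were chosen by symbol, and each of the 10 symbols matched 1 row of the table. RNA came from CD45+ cells, that is leukocytes, which magnetic beads enriched from EMT6-hHER2 tumors, with 1 library per mouse. EMT6-hHER2 is a mouse mammary carcinoma line made to express human HER2 and grown out from a single sorted cell, so that all tumors derive from 1 clone. Tumors grew in the mammary fat pad of female wild-type Balb/c mice with an intact immune system, 10-12 weeks old. Of the 24 mice, 6 were untreated (A1, B1, C1, D1, E1 and F1). Once their tumors had reached 80 mm3, the others received 1 intravenous dose of trastuzumab at 20 mg/kg (6 mice: E2, F2, G2, H2, A3 and B3), T-DM1 at 15 mg/kg (6 mice: C3, D3, E3, F3, G3 and H3) or T-PNU at 1 mg/kg (6 mice: G1, H1, A2, B2, C2 and D2). Tumors of every group were harvested at day 10, when by the paper's account those of the T-PNU group were smaller than at treatment. The paper reports that tumors kept growing under trastuzumab and T-DM1. It also marks some T-PNU samples as low-responding, which are not separated here. Differences of T-PNU samples from the other groups cannot be told apart from this difference in tumor size. Trastuzumab is an antibody against human HER2. T-DM1 and T-PNU are the same antibody carrying a toxic payload, the maytansinoid DM1, which blocks microtubules, and a derivative of the anthracycline PNU-159682, which damages DNA.

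Macrophages change their gene expression with the signals around them. Interferon gamma and microbial products favor a state, often called M1, with nitric oxide synthase and inflammatory cytokines, whereas interleukin 4 and interleukin 13 act through the receptor subunit Il4ra and the transcription factor Stat6 and favor a state, often called M2, with arginase, the mannose receptor and secreted Retnla and Chil3. In tumors both sets of genes are usually found together, and several of the 10 genes are also expressed by neutrophils, monocytes, dendritic cells or lymphocytes.

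The samples were mixed leukocytes and not sorted macrophages, so that fewer macrophages and less RNA per macrophage cannot be told apart in any value given here. Macrophage markers were high in every sample, with Lyz2 between 16.66 and 18.39, Csf1r between 13.47 and 14.92 and Adgre1 between 12.44 and 14.51 on the log2 scale of the table, beside 14.01 to 15.52 for Ptprc, the gene of CD45. Markers of T cells (Cd3e, 7.56 to 10.73), neutrophils (S100a8, 11.41 to 13.05), fibroblasts (Col1a1, 11.49 to 14.46) and epithelial tumor cells (Krt8, 11.69 to 13.77) were measured in every sample as well. Untreated sample B1 stood apart for the genes followed here. It had the lowest level of its group in 9 of the 10 genes and the highest in Il4ra, the lowest mean level of 12 macrophage and monocyte lineage markers of all 24 samples (0.94 below the average on the log2 scale) and, among the untreated samples, the highest level of T cell and B cell markers. Untreated sample C1 had the highest macrophage marker level of the 24 (0.79 above the average). The heatmaps of the study label 20 samples and leave out B1, C1, E2 and B3, so results are given for all 24 samples first and then for those 20. The column headings hold numbers whose meaning is not stated. They form separate runs for untreated samples, for T-PNU samples, and for trastuzumab together with T-DM1 samples. Between these runs, the effect of treatment and that of the run cannot be told apart.

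Per kilobase of exon, the 10 genes covered most of the range of expression of these cells. Il1b was highest, with a mean of 15.57 (log2 level per kilobase, 24 samples, 99.9th percentile of all genes), followed by Tnf (14.57, 99.7th percentile) and Arg1 (13.09, 98.9th percentile). The next 4 lay close together, with Il10 at 11.78, Il4ra at 10.68, Mrc1 at 10.45 and Nos2 at 10.43, all above the 92nd percentile. Chil3 (6.24, 43.4th percentile), Cd163 (5.05, 31.8th percentile) and Retnla (4.84, percentile 30.1) were expressed far lower. The same 3 genes varied most between samples: the SD over the 24 samples was 0.84 for Cd163, 0.70 for Retnla and 0.69 for Chil3, each larger than that of over 96% of all genes, against 0.31 for Il1b and 0.29 for Tnf. In all further sentences levels are log2 levels as the table gives them, not per kilobase, and differences are log2 fold changes (log2 FC) between group means.

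**Figure D1:**
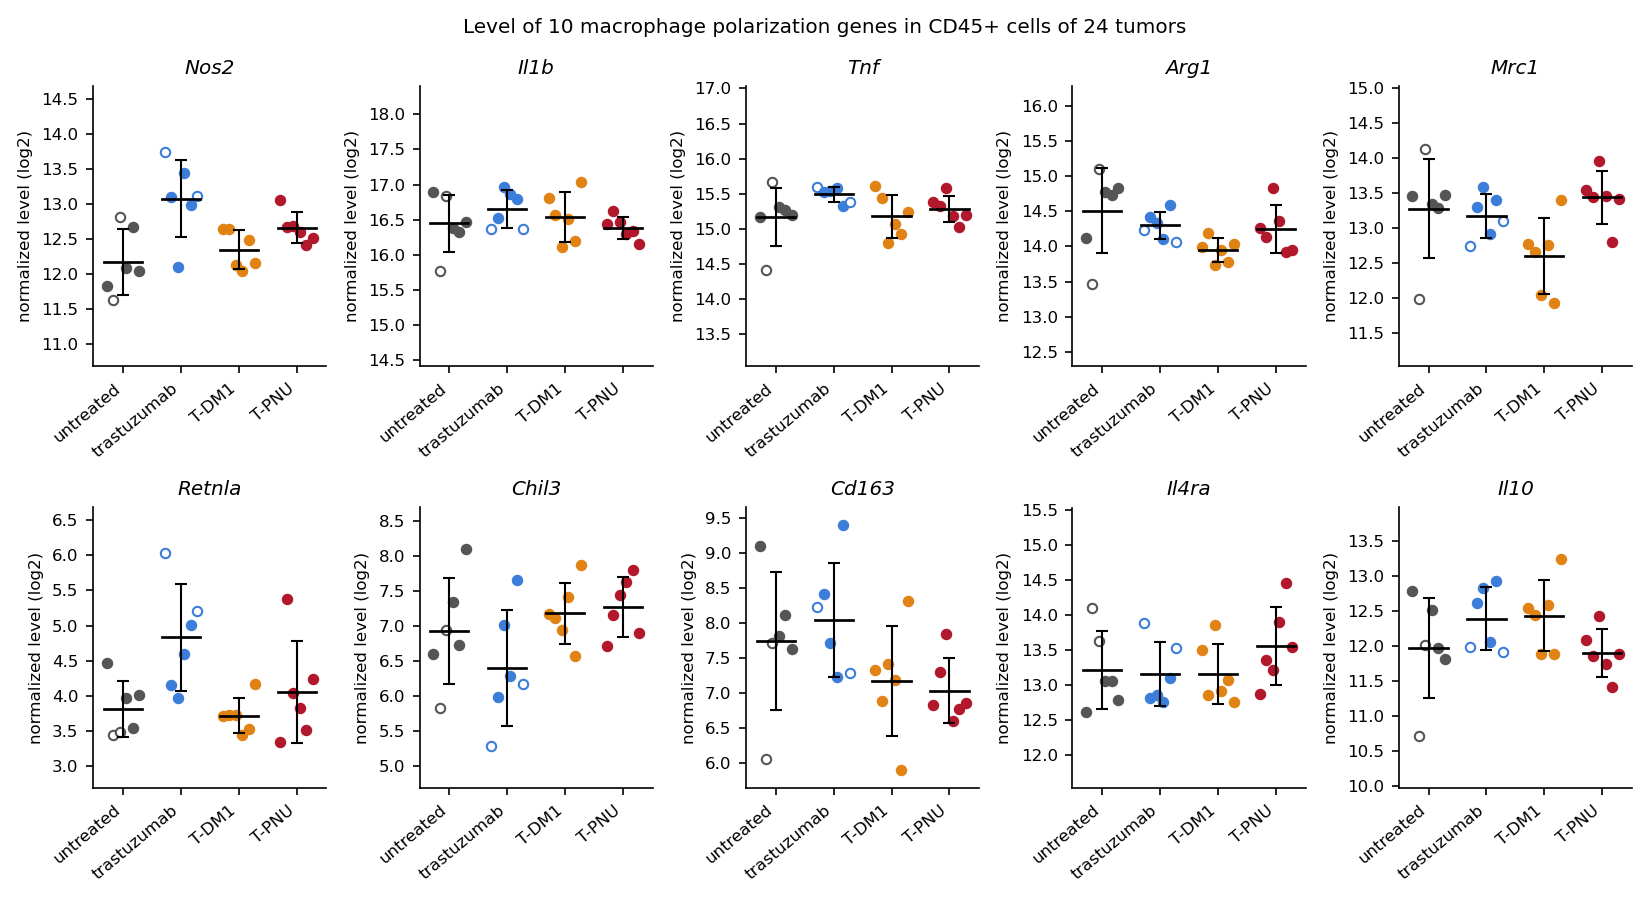
Normalized level (log2, vertical axis, 4 units high in each panel) of the 10 genes in the 6 samples of each of 4 groups. Points are samples, open points the 4 samples that the study's heatmaps leave out, lines the group means and bars 1 SD. In every panel the groups overlap, and the open point of untreated sample B1 lies lowest of its group except for Il4ra.

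Among the genes of inflammatory activation, Nos2 differed most between the groups. Nos2 encodes the inducible nitric oxide synthase, which makes nitric oxide from arginine (ENSMUSG00000020826, GRCm38 chr11:78920787-78960254). Its level ran from 11.63 over a median of 12.06 to 12.81 in untreated samples, from 12.11 over 13.10 to 13.74 after trastuzumab, from 12.04 over 12.33 to 12.65 after T-DM1 and from 12.42 over 12.64 to 13.06 after T-PNU. The trastuzumab samples were the highest: 5 of 6 lay above every untreated sample and 5 of 6 above every T-DM1 sample, with G2 the exception. Over the 4 groups, which accounted for 46.4% of its variance, Nos2 passed the moderated F test of limma (adjusted p = 0.025), but no single pair of groups passed. Trastuzumab against untreated came nearest (log2 FC 0.90, SE 0.22, 95% interval 0.45 to 1.35, adjusted p = 0.083 in limma). T-PNU against untreated gave 0.48 (SE 0.22, adjusted p = 0.18), T-DM1 against untreated 0.17 (SE 0.22, adjusted p = 0.69) and T-DM1 against trastuzumab -0.73 (SE 0.22, adjusted p = 0.12). In the order trastuzumab, T-PNU, T-DM1, untreated, no neighbouring groups passed the test, as was the case for neighbours in the order of each of the 9 other genes. The difference between trastuzumab and untreated samples passed when untreated C1, untreated E1 or trastuzumab G2 was left out (log2 FC between 1.00 and 1.10 for Nos2), and it missed with the 20 samples.

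Il1b and Tnf, the cytokines of acute inflammation, had the highest levels of the 10 and the smallest differences. Il1b (ENSMUSG00000027398, chr2:129364570-129371139), whose product is cleaved by caspase 1 before it acts, lay between 15.77 and 16.90 in untreated samples (median 16.43), between 16.36 and 16.96 after trastuzumab (16.66), between 16.11 and 17.04 after T-DM1 (16.54) and between 16.15 and 16.62 after T-PNU (16.38). Tnf (ENSMUSG00000024401, chr17:35199381-35202007), the ligand of the TNF receptors, lay between 14.41 and 15.66 in untreated samples (median 15.23), between 15.33 and 15.60 after trastuzumab (15.53), between 14.80 and 15.61 after T-DM1 (15.16) and between 15.03 and 15.58 after T-PNU (15.25). Apart from B1, the samples of all groups lay within 1 log2 unit of each other for each of these cytokines. For Tnf the 6 trastuzumab samples lay above 5 of the 6 untreated samples, with a log2 FC of 0.33 (SE 0.16, adjusted p = 0.56 in limma). None of the other comparisons of Il1b or Tnf reached an unadjusted p under 0.05, and the 95% interval of T-PNU against untreated was -0.43 to 0.30 for Il1b and -0.21 to 0.44 for Tnf.

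Arg1 was the member of the M2 group with the highest level. It encodes arginase 1, which splits arginine into ornithine and urea and so uses the same substrate as Nos2 (ENSMUSG00000019987, chr10:24915221-24927484). Levels ran from 13.46 over a median of 14.76 to 15.11 in untreated samples, from 14.07 over 14.29 to 14.59 after trastuzumab, from 13.74 over 13.97 to 14.19 after T-DM1 and from 13.92 over 14.20 to 14.84 after T-PNU. The untreated samples were split, with B1 below all 24 and 4 others above every trastuzumab and every T-DM1 sample. T-DM1 samples were the lowest group, with a log2 FC of -0.56 against untreated (SE 0.20, 95% interval -0.98 to -0.14, adjusted p = 0.094 in limma). The call for Arg1 turned on the samples: it was made with the 20 samples (log2 FC -0.67, adjusted p = 0.040) and without B1 alone (-0.77, adjusted p = 0.0086). T-PNU against untreated gave -0.26 (SE 0.20, adjusted p = 0.40) and T-PNU against T-DM1 0.30 (SE 0.20, adjusted p = 0.26). Within a sample, the level of Arg1 exceeded that of Nos2 by 2.33 ± 0.37 (SD, n = 6) in untreated samples, by 1.22 ± 0.64 after trastuzumab, by 1.59 ± 0.26 after T-DM1 and by 1.59 ± 0.33 after T-PNU, a log2 ratio that also depends on the lengths of the transcripts. The ratio was lowest in trastuzumab sample E2 (0.50) and highest in untreated F1 (2.80).

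Mrc1 was the gene with a called difference between the antibody-drug conjugates. It encodes the mannose receptor CD206, an endocytic receptor of macrophages (ENSMUSG00000026712, chr2:14229392-14332057). Levels ran from 11.99 over a median of 13.40 to 14.13 in untreated samples, from 12.75 over 13.20 to 13.59 after trastuzumab, from 11.93 over 12.71 to 13.40 after T-DM1 and from 12.80 over 13.46 to 13.96 after T-PNU. In 5 of 6 T-PNU samples Mrc1 lay above every T-DM1 sample, and the groups overlapped through T-PNU sample C2 (12.80) and T-DM1 sample H3 (13.40). T-PNU exceeded T-DM1 by a log2 FC of 0.84 (SE 0.27, 95% interval 0.27 to 1.41, adjusted p = 0.026 in limma), and by the same 0.84 with the 20 samples (SE 0.21, adjusted p = 0.0039), where the spread is estimated without the 4 samples. Without T-PNU H1 or A2, or T-DM1 E3 or G3, the difference in Mrc1 missed the threshold, with log2 FCs of 0.84, 0.74, 0.73 and 0.71 in that order. T-DM1 lay below untreated samples by 0.68 (SE 0.27, adjusted p = 0.13), which passed without B1 (-0.94, adjusted p = 0.020), and T-PNU differed from untreated samples by 0.16 (SE 0.27, 95% interval -0.41 to 0.72).

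Retnla, which encodes a secreted protein of the resistin family that interleukin 4 strongly induces, was at the lower end of the table (ENSMUSG00000061100, chr16:48842551-48844461). It lay between 3.44 and 4.46 in untreated samples (median 3.75), between 3.97 and 6.04 after trastuzumab (4.80), between 3.44 and 4.17 after T-DM1 (3.72) and between 3.34 and 5.37 after T-PNU (3.93). The highest values were those of trastuzumab samples E2 (6.04), B3 (5.21) and A3 (5.01) and of T-PNU sample H1 (5.37), and 4 of 6 trastuzumab samples lay above every untreated sample. Retnla passed the F test over the 4 groups (adjusted p = 0.042 in limma, 40.8% of its variance between groups), a call that was lost with the 20 samples and in 15 of the 24 fits that left out 1 sample. Trastuzumab exceeded untreated samples by a log2 FC of 1.01 (SE 0.31, 95% interval 0.37 to 1.66, adjusted p = 0.20) and T-DM1 lay below trastuzumab by 1.11 (SE 0.31, adjusted p = 0.098). With the 20 samples, which lack E2 and B3, these differences in Retnla were 0.44 (SE 0.32) and -0.72 (SE 0.30). T-PNU against untreated gave 0.24 (SE 0.31, adjusted p = 0.63). Markers of eosinophils moved in some of the same samples, with the list level highest in H1 (1.02) and E2 (0.68). Their part in the level of Retnla was not tested.

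The stretches of 250 bases before the RefSeq start sites of Mrc1 (GRCm38.p6 chr2:14229164-14229413, plus strand) and Retnla (GRCm38.p6 chr16:48842359-48842608, plus strand) are shown because Mrc1 is the gene called between T-PNU and T-DM1 and Retnla the lowly expressed gene called over the 4 groups. Such stretches were on hand for 7 of the 10 genes, and Arg1, Nos2 and Il10 were not matched. The 4 short motifs named in this paragraph were searched on both strands, and capitals mark every match.
Mrc1: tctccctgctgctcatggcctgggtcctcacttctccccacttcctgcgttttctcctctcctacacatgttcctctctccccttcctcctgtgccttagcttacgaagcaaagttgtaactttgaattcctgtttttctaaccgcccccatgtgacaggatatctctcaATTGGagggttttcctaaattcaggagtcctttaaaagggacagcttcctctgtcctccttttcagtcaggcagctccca
Retnla: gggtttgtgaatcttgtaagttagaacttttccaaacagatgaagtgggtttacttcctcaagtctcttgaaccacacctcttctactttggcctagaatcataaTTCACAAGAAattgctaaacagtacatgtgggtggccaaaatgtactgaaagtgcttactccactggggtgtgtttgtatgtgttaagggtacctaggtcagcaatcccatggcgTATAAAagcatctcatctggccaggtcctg
The capitals in Mrc1 are a CCAAT box on the minus strand, 80 to 76 bases before the start site, a motif found in 33.8% of 32851 such stretches and also in those of Chil3 and Cd163. In Retnla the first capitals are TTCNNNNGAA, the spacing that Stat6 prefers, 145 to 136 bases before the start site, which 5.85% of all stretches and no other of the 7 genes hold. The second are a TATAAA box 30 to 25 bases before the start site, found in 12.4% of all stretches and also in those of Il1b and Tnf. The spacing TTCNNNGAA of other Stat factors was found in Chil3 among the 7 and in 7.02% of all stretches. These matches describe the letters and were not tested as binding sites.

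Chil3 encodes a secreted chitinase-like protein, Ym1, made by macrophages activated with interleukin 4 and by monocytes and neutrophils (ENSMUSG00000040809, chr3:106147554-106167564). Its level lay between 5.84 and 8.10 in untreated samples (median 6.84), between 5.29 and 7.65 after trastuzumab (6.23), between 6.57 and 7.87 after T-DM1 (7.14) and between 6.71 and 7.80 after T-PNU (7.31). Trastuzumab samples were thus lowest in Chil3 and highest in Retnla, most clearly E2, which had the lowest Chil3 and the highest Retnla of all 24. T-PNU exceeded trastuzumab by a log2 FC of 0.88 (SE 0.35, adjusted p = 0.20 in limma) and T-DM1 exceeded it by 0.78 (SE 0.35, adjusted p = 0.28), so that neither difference passed. T-PNU and T-DM1 differed by 0.09 (SE 0.35, 95% interval -0.62 to 0.81). Chil3 has near-identical neighbours in the genome, among them Chil4, which had no row in the table, and reads shared between such copies could be split or lost in counting.

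Cd163, the scavenger receptor for complexes of hemoglobin and haptoglobin, had the largest SD of the 10 genes within the untreated and the T-DM1 group, but not within the others (ENSMUSG00000008845, chr6:124304656-124330527). It lay between 6.06 and 9.11 in untreated samples (median 7.77), between 7.24 and 9.39 after trastuzumab (7.97), between 5.91 and 8.32 after T-DM1 (7.26) and between 6.60 and 7.84 after T-PNU (6.84). The highest samples were trastuzumab A3 (9.39) and untreated A1 (9.11), the lowest T-DM1 G3 (5.91) and untreated B1 (6.06), and the T-PNU group had the lowest mean. T-PNU lay below untreated samples by 0.70 (SE 0.42, 95% interval -1.58 to 0.17, adjusted p = 0.29 in limma) and below trastuzumab by 1.01 (SE 0.42, adjusted p = 0.21). With the 20 samples both differences in Cd163 passed, at log2 FCs of -1.13 (SE 0.42, adjusted p = 0.047) and -1.16 (SE 0.42, adjusted p = 0.046). Of all genes, 31.1% and 28% were called there, in that order. The samples left out include B1, the lowest untreated sample in Cd163. Without B1 alone the log2 FC against untreated was -1.04 and was not called. These calls of Cd163 cannot be told apart from the choice of samples.

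Il4ra, the receptor subunit through which interleukin 4 and interleukin 13 signal, is expressed by lymphocytes as well as by macrophages (ENSMUSG00000030748, chr7:125552120-125579474). Its level lay between 12.61 and 14.10 in untreated samples (median 13.06), between 12.76 and 13.88 after trastuzumab (12.98), between 12.75 and 13.85 after T-DM1 (12.99) and between 12.87 and 14.45 after T-PNU (13.45). The highest samples were T-PNU C2 (14.45) and untreated B1 (14.10), the sample that was lowest in the 9 other genes of its group. T-PNU exceeded untreated samples by 0.35 (SE 0.27, adjusted p = 0.41 in limma), and by 0.68 with the 20 samples (SE 0.24, adjusted p = 0.041). T cell markers moved in the same direction: of 8, 0 were called with 24 samples (median log2 FC 0.96) and 8 with the 20 samples (median 1.60), and their part in the level of Il4ra was not tested. Against trastuzumab, T-PNU exceeded by 0.40 in Il4ra (SE 0.27, adjusted p = 0.39), and by 0.67 with the 20 samples (adjusted p = 0.045). The untreated samples left out, B1 and C1, had the highest T cell marker levels of their group (log2 deviations 1.41 and 0.31). The same was true of trastuzumab E2 and B3 (1.25 and 0.75), while T-PNU kept all its samples. The calls of Il4ra with the 20 samples cannot be told apart from this choice of samples. Between trastuzumab, T-DM1 and untreated samples Il4ra differed by at most 0.05 in either direction, with 95% intervals no wider than -0.61 to 0.57.

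Il10 encodes the cytokine that restrains macrophage activation and inflammatory cytokine production (ENSMUSG00000016529, chr1:131019845-131024974). Its level lay between 10.71 and 12.79 in untreated samples (median 11.99), between 11.92 and 12.93 after trastuzumab (12.34), between 11.88 and 13.24 after T-DM1 (12.49) and between 11.41 and 12.43 after T-PNU (11.87). T-PNU samples had the lowest mean and T-DM1 samples the highest, with 4 of 6 T-DM1 samples above every T-PNU sample. T-PNU lay below T-DM1 by 0.53 (SE 0.28, 95% interval -1.11 to 0.06, adjusted p = 0.16 in limma), below trastuzumab by 0.49 (SE 0.28, adjusted p = 0.32) and below untreated samples by 0.07 (SE 0.28, adjusted p = 0.90). With the 20 samples the difference in Il10 from trastuzumab passed (log2 FC -0.71, SE 0.25, adjusted p = 0.044). The trastuzumab samples left out there, E2 and B3, had the highest T cell marker levels of their group (log2 deviations 1.25 and 0.75). The difference from untreated samples changed sign when untreated A1, untreated D1 or T-PNU C2 was left out, with log2 FCs of 0.10, 0.04 and 0.03.

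**Figure D2:**
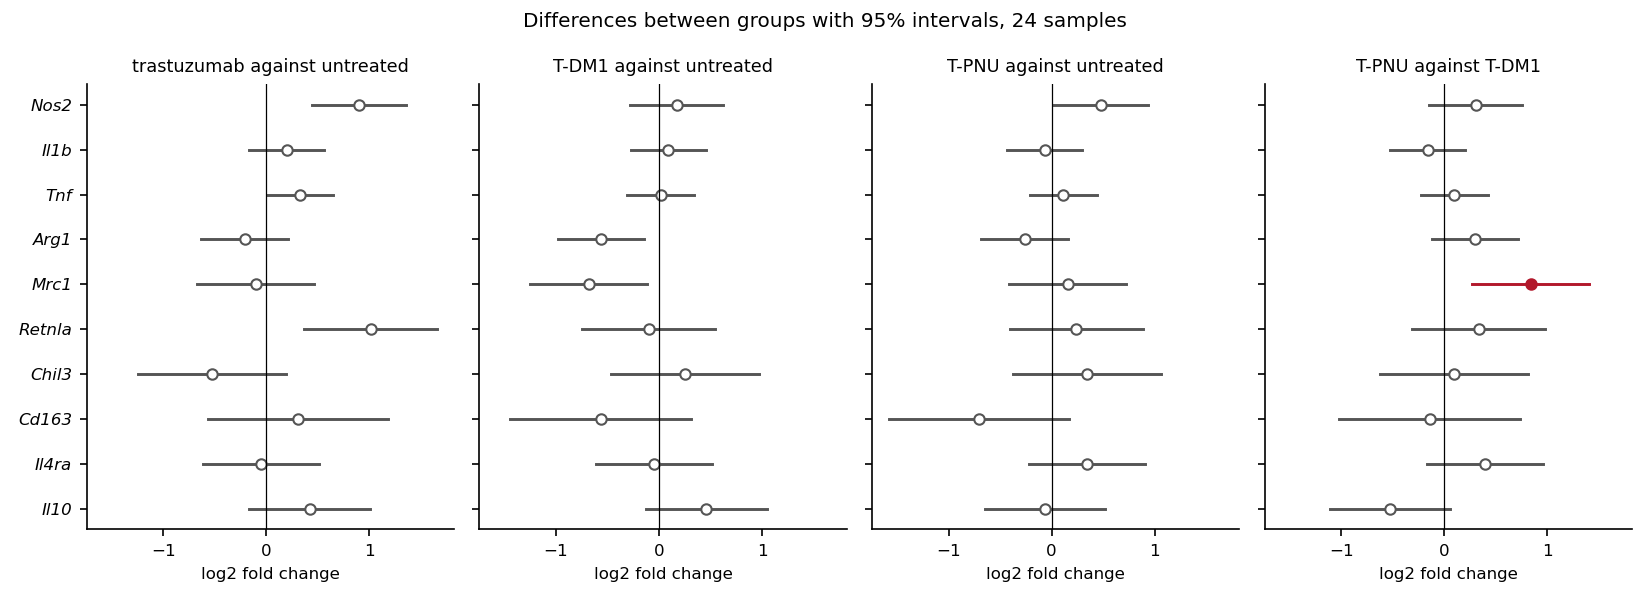
Log2 fold changes (horizontal axis) of the 10 genes in 4 comparisons over all 24 samples, as points with 95% intervals. Filled red marks an adjusted p under 0.05, which Mrc1 reached between T-PNU and T-DM1 (0.84, 0.27 to 1.41), and most other intervals include 0.

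Counted over the 10 genes with all 24 samples, the share called was read against that of all 16996 genes. Between T-PNU and untreated samples 0 of 10 were called (0.188% of all genes) and 1, Nos2, had an unadjusted p under 0.05. Between T-DM1 and untreated samples 0 of 10 were called (6.27% of all genes), and Arg1 and Mrc1 were under 0.05 before adjustment. Between trastuzumab and untreated samples 0 of 10 were called (0.259% of all genes), and Nos2, Retnla and Tnf were under 0.05 before adjustment. These counts say little, because in each of those comparisons the share of all genes called was less than 1 in 10. Between T-PNU and T-DM1, where 29.8% of all genes passed, 1 of 10 did, and between T-DM1 and trastuzumab 0 of 10 (0.647% of all genes), where 4 were under 0.05 before adjustment. Between T-PNU and trastuzumab 0 of 10 were called (0.00588% of all genes), while Retnla, Chil3 and Cd163 stayed under 0.05 before adjustment. In the F test over the 4 groups 2 of 10 passed, Nos2 and Retnla, beside 18.8% of all genes. For none of the 10 genes were 2 groups free of overlap, which for all genes was the case in 0.541% (untreated and trastuzumab) to 13.2% (T-DM1 and T-PNU).

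With the 20 samples the share of all genes called rose in the 3 comparisons with T-PNU and between T-DM1 and trastuzumab, and it fell in T-DM1 and in trastuzumab against untreated. Between T-PNU and untreated samples 2 of 10 passed, Cd163 and Il4ra, beside 31.1% of all genes, between T-PNU and trastuzumab 3, Cd163, Il4ra and Il10, beside 28%, and between T-PNU and T-DM1 1, Mrc1, beside 39.9%. Between T-DM1 and untreated samples Arg1 passed, beside 2.01% of all genes. Between T-DM1 and trastuzumab 0 passed (0.812% of all genes, 6 of the 10 at an unadjusted p under 0.05), and between trastuzumab and untreated samples 0 of 10 and 0% of all genes (Nos2, and 865 of all genes, at an unadjusted p under 0.05). In the F test 4 passed, Arg1, Nos2, Mrc1 and Cd163, beside 40.8% of all genes. With 10 genes, each call moves their share by 10 percentage points. Comparisons against the same group share its samples, so that they are not independent of each other.

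The median log2 FC of the 10 genes was 0.14 in T-PNU against untreated (all genes 0.01), -0.02 in T-DM1 against untreated (all genes -0.02), 0.25 in trastuzumab against untreated (all genes -0.015) and 0.20 in T-PNU against T-DM1 (all genes 0.03). It was -0.24 in T-PNU against trastuzumab (all genes 0.01) and -0.33 in T-DM1 against trastuzumab (all genes -0.0014). In T-PNU against untreated, Nos2, Tnf, Mrc1, Retnla, Chil3 and Il4ra had positive log2 FCs, and Arg1, Cd163, Il1b and Il10 negative ones, none of them called, and the sign of Mrc1, Retnla, Il1b, Tnf and Il10 changed when some single samples were left out. In trastuzumab against untreated 6 of the 10 were positive: Retnla (1.01), Nos2 (0.90), Tnf (0.33), Cd163 (0.31), Il1b (0.20) and Il10. Arg1 (-0.21), Mrc1 (-0.10), Chil3 (-0.53) and Il4ra (-0.05) were negative, and none of the 10 was called.

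**Figure D3:**
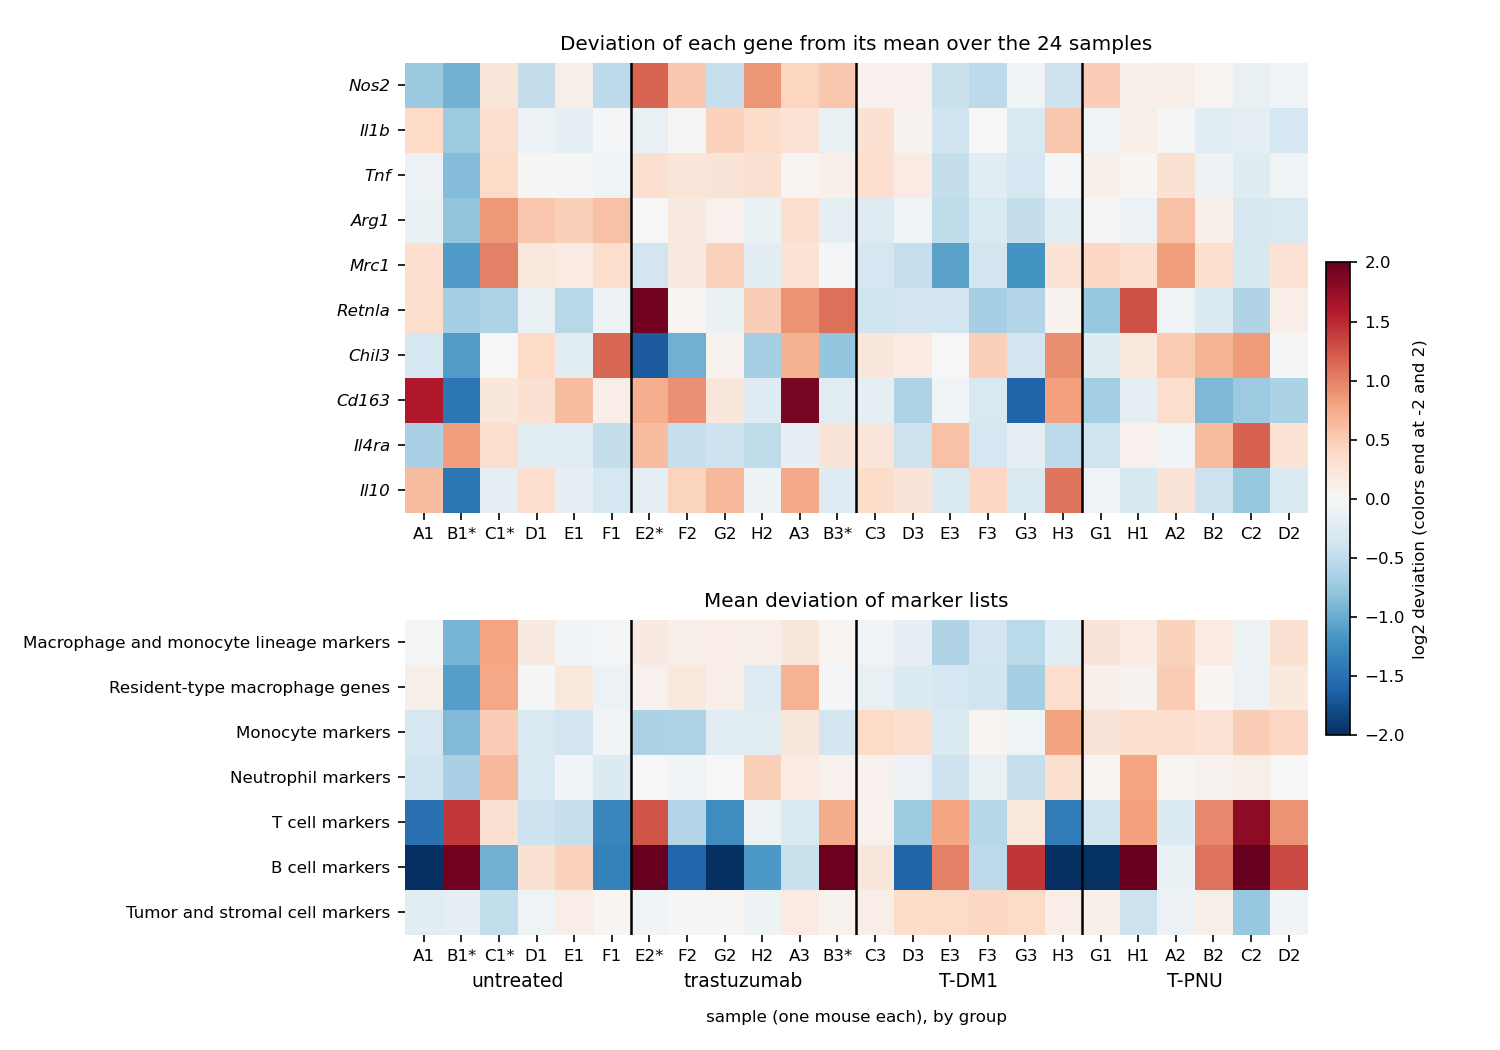
Upper panel, log2 deviation of each of the 10 genes from its mean over the 24 samples; lower panel, the mean deviation of the genes of 7 marker lists (members left out). Columns are samples in groups of 6, stars mark the 4 samples outside the study's heatmaps, and colors end at -2 and 2. Untreated B1 is low in 9 of the 10 genes and in macrophage markers, and high in Il4ra and in T cell and B cell markers.

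Several of the genes moved with the cell type markers of the same sample. The level of the 12 macrophage and monocyte lineage markers (among them Adgre1, Cd68, Csf1r, Lyz2, Mertk and C1qb) correlated over the 24 samples with Mrc1 (r = 0.87, rho = 0.73), Tnf (r = 0.81, rho = 0.605) and Arg1 (r = 0.76, rho = 0.67). Without B1 and C1, the samples farthest from the median of that level, r was 0.81 for Mrc1, 0.68 for Tnf and 0.60 for Arg1. For Il1b the correlation of 0.47 fell to 0.15 without these samples, and for Il10 that of 0.31 fell to 0.06, so that both rested on B1 and C1. Il4ra followed the 8 T cell markers instead (r = 0.92, rho = 0.92, without B1 and C2 r = 0.89) and the 5 B cell markers (r = 0.79), and Il10 went the opposite way, with r = -0.76 against T cell and -0.68 against B cell markers. Deviations from the group means gave r = 0.92 for Il4ra and -0.82 for Il10 against T cell markers, so that these relations held within groups. Chil3 and Retnla had no r above 0.4 with macrophage markers in either form. These are descriptions of 120 pairs of gene and list without a test, and the points share the normalization of the table, in which a larger share of one cell type lowers the others.

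**Figure D4:**
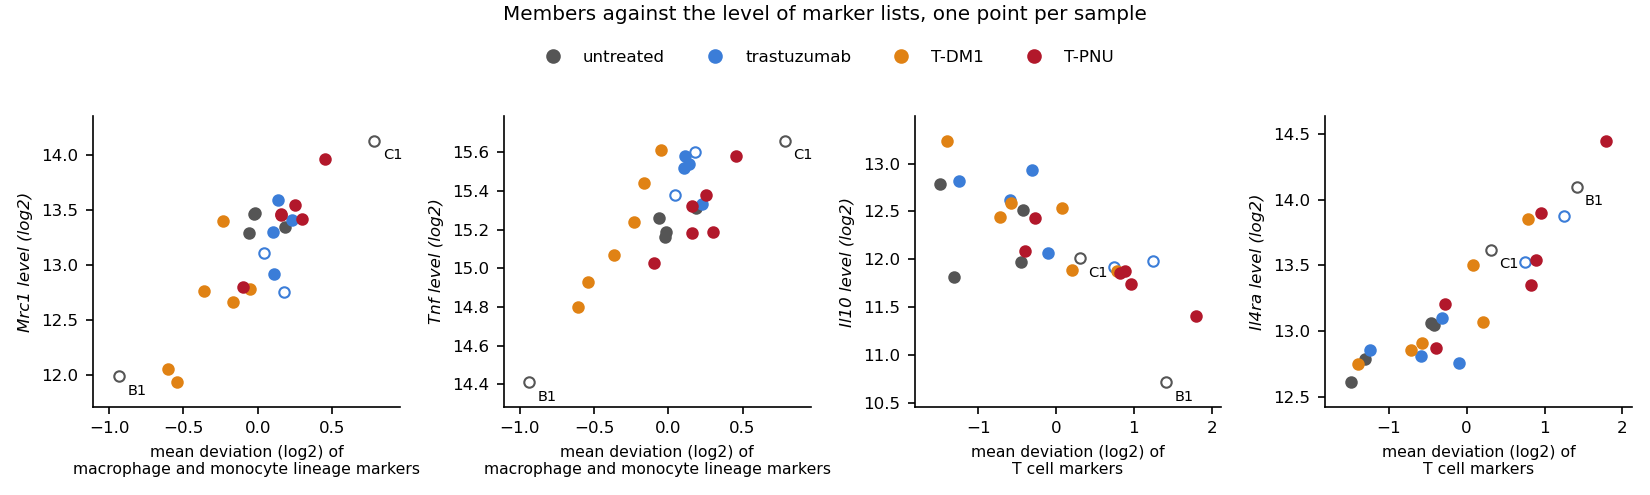
Level (log2) of Mrc1 and Tnf against the mean deviation of macrophage and monocyte lineage markers, and of Il10 and Il4ra against that of T cell markers, with 1 point per sample colored by group and open points for the 4 samples outside the heatmaps. Mrc1 and Tnf rise with macrophage markers (r = 0.87 and 0.81), while against T cell markers Il4ra rises (r = 0.92) and Il10 falls (r = -0.76).

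Between T-PNU and T-DM1, macrophage markers differed in the same direction as Mrc1. Of the 12 lineage markers 6 were higher after T-PNU and 0 lower (10 and 0 with the 20 samples, where 39.9% of all genes were called), with a median log2 FC of 0.58 against 0.03 for all genes, led by Mertk (0.93, SE 0.21, adjusted p = 0.0041 in limma) and Adgre1 (0.86, SE 0.22, adjusted p = 0.0065). The summed level of the list ran from 18.38 to 19.03 (log2) in T-PNU samples and from 17.89 to 18.39 in T-DM1 samples, beside 17.71 to 19.33 in untreated and 18.55 to 18.87 in trastuzumab samples. Taken relative to the mean of these markers in the same sample, the difference in Mrc1 fell to a log2 FC of 0.31 (SE 0.17, adjusted p = 0.13 in limma) and was not called. This scale subtracts the marker mean of each sample from every gene, so that all log2 FCs of a comparison shift by the same amount. The fall of Mrc1 is that shift and no separate result for the gene. On this scale the median of all genes moved to -0.50 and 53.1% of all genes were called. Il10 (-1.06, SE 0.23, adjusted p = 8.3e-04) and Il1b (-0.69, SE 0.15, adjusted p = 0.0011) then lay below that median and were called, and Tnf (-0.43, SE 0.10) was called as well although it lay above it. How much of the difference in Mrc1 came with the number of macrophages was not tested.

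Other genes of the same programs were read against the 29.8% of all genes called between T-PNU and T-DM1, and the M1 and M2 lists had no larger share. That share counts both directions, with 2111 of the 16996 genes higher after T-PNU and 2962 lower. Of 20 further genes of M1-type activation, 5 were higher after T-PNU and 0 lower (median log2 FC 0.27), with Cd38, an NAD-consuming ectoenzyme (1.02, SE 0.19), and Irf1, an interferon-induced transcription factor (0.63, SE 0.16), in front. Cd38 was also lower after T-DM1 than in untreated samples (-0.73) and after trastuzumab (-1.07), the only calls of this list in the other comparisons with 24 samples. Of 17 measured genes of M2-type activation, 1 was higher after T-PNU, Alox15, a lipoxygenase (1.18, SE 0.21), and 3 were lower, led by Fn1, fibronectin (-1.27, SE 0.32), and Myc (-0.89, SE 0.16), both of which are also expressed by cells other than macrophages. Myc (0.58) and Klf4 (0.47) of this list were higher after T-DM1 than in untreated samples, and Alox15 was lower after T-DM1 than after trastuzumab (-0.96). These 3 calls were lost with the 20 samples, since 0 of the list were higher and 1 was lower in the former comparison and 0 were called in the latter. Of 10 genes typical of resident macrophages, 5 were higher after T-PNU than after T-DM1 and 0 lower, with Gas6 (0.96, SE 0.28) and Folr2 (0.82, SE 0.26) first. In T-PNU against untreated samples 0 genes of these 3 lists were called with 24 samples. With the 20 samples 6 of the M1 list were higher, 4 of the M2 list higher and 2 lower, and 3 of the resident list higher. These shares were close to the 31.1% of all genes called in either direction. By direction, 2607 of the 16996 genes were higher and 2672 lower, while 0 of the M1 and 0 of the resident list were lower. Markers of fibroblasts differed the opposite way at the same time, with Col1a1 lower after T-PNU than after T-DM1 by 1.62 on the log2 scale, and their part in the levels of Fn1 and Myc was not tested.

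The signaling lists around the members had shares called between T-PNU and T-DM1 that were near or below the 29.8% of all genes. Il4 (3.51 to 4.89) and Il13 (3.90 to 5.25), the ligands of Il4ra, were at the lower end of the table in every sample. Of the 9 genes of interleukin 4 and 13 signaling, T-PNU against T-DM1 called Il2rg, the common gamma chain (0.59, SE 0.17), and Il13ra2, the decoy receptor (-0.75, SE 0.19), and no other comparison with 24 samples called any. Of this list, 4 were higher and 1 lower with the 20 samples in T-PNU against untreated (31.1% of all genes), and 2 higher and 1 lower in T-PNU against trastuzumab (28% of all genes). Of 8 genes of interleukin 10 signaling, Bcl3, an inhibitor of cytokine transcription that Il10 induces, was higher than in untreated samples in all 3 treated groups, by 0.48 after T-PNU (adjusted p = 0.048 in limma), 0.54 after T-DM1 (adjusted p = 0.0056) and 0.51 after trastuzumab (adjusted p = 0.030), SE 0.10 each. The 3 comparisons share the untreated samples, in which Bcl3 lay between 10.28 and 10.81, against 10.85 to 11.46 over the 18 treated ones. Of all genes, 0.188%, 6.27% and 0.259% were called after T-PNU, T-DM1 and trastuzumab, in that order. In the same order 1.01%, 3.33% and 0.541% were free of overlap with untreated samples. Untreated samples form a separate run of column numbers, so the effect of treatment on Bcl3 and that of the run cannot be told apart. The call after trastuzumab was lost with the 20 samples, as were those of all genes, while 6 of the 8 genes of this list were higher after T-PNU than in untreated samples, beside 31.1% of all genes. The list also holds the member Il4ra, which is among those 6, and it shares Jak1 and Tyk2 with the interleukin 4 and 13 list. Il10ra, the ligand-binding receptor chain, was higher after T-PNU than after T-DM1 (0.44, SE 0.13). Of 12 genes of TNF signaling, Rela, the p65 subunit of NF-kappaB, was higher than in untreated samples after T-DM1 (0.43) and trastuzumab (0.42), Traf1 after T-DM1 (0.41, the call of Rela after trastuzumab being lost with the 20 samples), and Birc3 (0.37) and Adam17, which sheds Tnf from the cell surface (0.31), led the 3 genes higher after T-PNU than after T-DM1. Of 12 genes of interleukin 1 signaling, Irak3 (0.50) and Myd88 (0.22) were higher and the receptor Il1r1 (-0.78) lower after T-PNU than after T-DM1, while the antagonist Il1rn stayed between 14.61 and 16.07 over all samples. Of 11 measured genes of arginine uptake and metabolism, T-DM1 against untreated called Ddah2 (0.68, lost with the 20 samples) and Nos1 (-0.41), and T-PNU against T-DM1 called Nos1 (0.36), Ddah2 (-1.24) and Asl (-0.23).

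Of 11 measured paralogs of the members, 3 were called between T-PNU and T-DM1, a share close to that of all genes. Retnlg, a resistin-like gene of neutrophils, was higher after T-PNU than after T-DM1 (0.84, SE 0.21), Nos1 was higher as given above, and Mrc2, the endocytic collagen receptor of fibroblasts and some macrophages, was lower (-0.86, SE 0.16). For comparison, Retnla was at 0.34, Nos2 at 0.31 and Mrc1 at 0.84. Mrc2 was also higher after T-DM1 than in untreated samples (0.58, SE 0.16), a call that was lost with the 20 samples, where 0 paralogs were higher and 1 was lower. Chil1, Retn, Arg2, Cd163l1, Nos3, Il1a, Lta and Ltb were not called in any comparison with 24 samples. Chil4, Chit1 and Retnlb had no row in the table.

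Markers of other leukocytes and of tissue differed as follows. Of the 5 monocyte markers, Ly6c2 was higher than in untreated samples after T-PNU (1.04, SE 0.20) and after T-DM1 (1.05, SE 0.20), in a list that also holds Chil3. The 4 other markers of that list were not called in either comparison. Of all genes, 0.188% and 6.27% were called there, in that order. Between T-PNU and T-DM1, beside 29.8% of all genes called in either direction, higher after T-PNU were 2 of 8 neutrophil markers, led by Retnlg, 3 of 4 measured eosinophil markers, led by Ccr3 (1.05), 2 of 7 mast cell and basophil markers, led by Kit (0.56), 2 of 7 dendritic cell markers, led by Xcr1 (1.19), 5 of 5 natural killer cell markers, led by Klrb1c (0.84), and 1 of 4 measured adipose markers, Fabp4 (1.02). The shares of neutrophil, mast cell, dendritic cell and adipose markers were near that of all genes. Of the 8 T cell and 5 B cell markers 0 were called in any comparison with 24 samples, and the B cell median was 1.11 in T-PNU against untreated samples. Of 10 tumor and stromal cell markers 3 were higher and 5 lower after T-PNU than after T-DM1, and Col1a1 (1.32) and Col3a1 (0.91) were higher after T-DM1 than in untreated samples, calls that were both lost with the 20 samples. In that comparison Mmp9 of the neutrophil list was also higher (1.10) and C1qb of the macrophage list lower (-0.75), and T-DM1 lay below trastuzumab in C1qb (-0.88) and Xcr1 (-1.42). The part of these cells in the levels of the 10 genes was not tested.

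The 10 genes were also compared with each other. Of the 45 pairs, Arg1 and Mrc1 (r = 0.78, rho = 0.70) and Il1b and Il10 (r = 0.78, rho = 0.74) had the highest correlation over the 24 samples, followed by Cd163 and Il10 (r = 0.685), Il1b and Tnf (r = 0.67) and Nos2 and Tnf (r = 0.66). Il4ra and Il10 had the most negative one (r = -0.70). Arg1 and Nos2, which compete for arginine, gave r = 0.235, and Nos2 and Mrc1 gave 0.17. Among named genes of above-median mean level, those most like each member over the 24 samples were as follows, given with r and no test. Dusp3 (0.94), B4galt6 (0.93) and Itgam (0.93) were most like Mrc1, and Itsn1 (0.89), Hip1 (0.87) and Myo7a (0.86) most like Arg1. Batf2 (0.89), C3 (0.88) and Gbp5 (0.87) were most like Nos2. Clec4e (0.90), Il1a (0.89) and Ccl4 (0.86) were most like Il1b, and Pstpip2 (0.91), Rbm47 (0.90) and Rasgrp4 (0.89) most like Tnf. Galnt6 (0.97), Pik3cd (0.97) and Slc9a3r1 (0.97) were closest to Il4ra, and Cd14 (0.95), Cxcl1 (0.93) and Adora2b (0.92) to Il10. For the genes of low level the likeness was weaker, with F13a1 (0.82), Rcan1 (0.76) and Bcl2a1d (0.76) for Cd163, Postn (0.67), Derl2 (0.63) and Plet1 (0.62) for Retnla and Klf11 (0.62), Osm (0.61) and Carhsp1 (0.60) for Chil3.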

How the data were processed

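RNA of CD45+ cells from 24 tumors, 6 per group, was sequenced as stranded mRNA libraries. The authors aligned reads with STAR 2.4.2a to mm10, counted them with featureCounts, removed genes averaging under 5 counts and normalized with DESeq2. The deposited values are on a log2 scale whose transformation is not named in the sources used here. Counts could not be recovered, so depth per sample and the precision it gives are unknown. Levels were fitted with limma 3.58.1 (trend, all 4 groups, 16996 genes), with p-values adjusted by Benjamini-Hochberg over all genes and called under 0.05, for the 6 pairs of groups and an F test. These p-values set differences between group means against the spread between the mice of a group. In simulated data for T-PNU against untreated over 16996 genes, 93 of 100 genes changed by 1 log2 unit were recovered. The changed genes were drawn from all genes, and the simulated noise was independent between genes and samples, without shifts of whole samples such as B1. This share therefore does not tell how often a member with such a change would be called. GENCODE M21 gave positions and lengths. Named are the 10 members, the 3 genes most like each, and up to 2 called genes per direction and list, plus the defining markers. The members and the 20 gene lists were chosen with earlier results of these data known. Alternatives were the 20 heatmap samples, each sample left out, quantile normalization, a level filter, 2-group fits, array weights, a stricter threshold and values relative to macrophage markers.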

Additional observations from a re-analysis of the deposited data

How the results depend on the processing

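Of the 10 genes, 2, 1, 3 and 4 were called with the 20 samples in T-PNU against untreated, T-DM1 against untreated, T-PNU against trastuzumab and the F test. Of all genes, 31.1%, 2.01%, 28% and 40.8% were called there in the same order. With array weights the counts were 3 in T-PNU against untreated, 2 in T-DM1 against untreated, 1 in trastuzumab against untreated, 1 in T-PNU against trastuzumab, 3 in T-DM1 against trastuzumab and 5 in the F test. Relative to macrophage markers they were 2 in T-DM1 against untreated (8.04% of all genes) and 3 in T-PNU against T-DM1 (53.1%). On that scale 1 was called in T-DM1 against trastuzumab (33.5%) and 6 in the F test (35.8%). Among genes above the median level the F test called 1 member, beside 23.1% of the genes kept. That filter removed Retnla, Chil3 and Cd163, which were therefore not tested. An adjusted p under 0.01 with a fold of 2 left 0 in T-PNU against T-DM1. Leaving out 1 sample gave 1 to 4 in the F test, 0 to 2 in T-DM1 against trastuzumab, 0 to 2 in T-DM1 against untreated, 0 to 1 in T-PNU against T-DM1, 0 to 1 in trastuzumab against untreated and 0 to 0 in the others. For array weights and for the fits that left out 1 sample, the share of all genes called was not counted. Those counts of members cannot be set against it. Without B1, Arg1 and Mrc1 joined the calls of T-DM1 against untreated, and without G2, Nos2 and Retnla those of T-DM1 against trastuzumab. The cause was not tested. Among single genes 1313 values kept direction and side of the threshold, 27 gained and 5 lost the call, and 48 changed sign. Between pairs of groups only 1 difference, Mrc1 between T-PNU and T-DM1, was called with all 24 samples, and all 5 lost calls were of it. The 1313 values were therefore mostly differences that stayed uncalled. Most came from the 24 fits that left out 1 sample, which share nearly all their samples.

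Taking values relative to macrophage markers shifts the log2 FC of every gene in a comparison by the same amount. Sign changes on that scale follow from this shift and are no separate result for each gene. Relative to macrophage markers, the log2 FC changed sign in T-PNU against untreated for Mrc1 (-0.057) and Tnf (-0.10), in T-DM1 against untreated for Retnla (0.22) and Il4ra (0.27), and in T-PNU against T-DM1 for Arg1 (-0.23), Nos2 (-0.22), Retnla (-0.19), Chil3 (-0.44), Tnf (-0.43) and Il4ra (-0.13), where the median of all genes moved to -0.50. With the 20 samples it did so in T-DM1 against untreated for Chil3 (-0.014), Tnf (-0.049) and Il4ra (0.28) and in trastuzumab against untreated for Il4ra (0.0038). With array weights it did so in T-PNU against untreated for Chil3 (-0.12), in T-DM1 against untreated for Chil3 (-0.21), Tnf (-0.0060) and Il4ra (0.13), and in trastuzumab against untreated for Il4ra (0.037). Leaving out 1 sample changed signs in T-PNU against untreated for Mrc1 (-0.10 to 0.33), Retnla (-0.027 to 0.38), Il1b (-0.20 to 0.023), Tnf (-0.038 to 0.21) and Il10 (-0.32 to 0.099), in T-DM1 against untreated for Retnla (-0.19 to 0.030), Il1b (-0.042 to 0.18), Tnf (-0.14 to 0.12) and Il4ra (-0.19 to 0.13), in trastuzumab against untreated for Mrc1 (-0.36 to 0.069), Cd163 (-0.029 to 0.58) and Il4ra (-0.20 to 0.13), and in T-PNU against T-DM1 for Chil3 (-0.029 to 0.23) and Cd163 (-0.39 to 0.089). No paired analysis was possible because the groups share no replicate numbers. Depth is unknown, so the low levels of Retnla, Cd163 and Chil3 carry no counting interval.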
